A study of Homo sapiens with 20 samples.

Results

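DDIT4, DEPP1 and 6 further genes known as targets of FOXO or MondoA transcription factors (TXNIP, ARRDC3, ARRDC4, PIK3IP1, IRS2 and SESN3) were followed in HEK293T cells given small interfering RNA (siRNA) against HUWE1. These 8 genes of the 45372 gene symbols measured were picked by name, with results of the same libraries in view: DDIT4 and DEPP1 were among the most reduced genes of sets 1 and 3, ranking 35 and 54 from the lowest of 16057 genes tested in set 1, and 51 and 17 of 15860 in set 3. Their differences between HUWE1 siRNA and control are therefore given as a description, with no p-value.

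HEK293T is an established line of human embryonic kidney origin that expresses SV40 large T antigen, and HUWE1 is a HECT-type ubiquitin ligase. The 20 libraries form 5 groups of 4: non-targeting (NT) siRNA and HUWE1 siRNA libraries labelled without a set number, referred to as set 1; HUWE1 siRNA set 2; HUWE1 siRNA set 3; and 4 NT siRNA libraries that sets 2 and 3 share as controls. All groups are siRNA-treated cells of 1 line, and the series text describes the 4 libraries of a group as biological replicates; the sources used here do not give siRNA sequences, doses or times, or say how the sets differ. The study asked what transcriptional response HUWE1 knockdown induces. In bulk RNA of this kind, fewer cells expressing a gene and less of its RNA per cell cannot be told apart.

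FOXO factors sit downstream of insulin signalling. Active AKT phosphorylates them and keeps them out of the nucleus, and when AKT activity drops they switch on genes such as IRS2, SESN3, PIK3IP1 and DEPP1. MondoA (gene MLXIP) works as a pair with MLX, responds to glucose phosphates and drives TXNIP and ARRDC4, whose proteins restrain glucose uptake. DDIT4 (also called REDD1) and the sestrins restrain the growth kinase complex mTORC1, DDIT4 through the TSC complex, and DDIT4 is also induced by hypoxia, by glucocorticoids and by ATF4, the transcription factor of the integrated stress response.

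Promoter windows from RefSeq (GRCh38.p14, 250 bases before to 50 bases after each annotated start) were available for all 8 genes, as 11 windows because TXNIP, ARRDC3 and PIK3IP1 have 2 starts each. They were searched on both strands for a forkhead motif bound by FOXO factors (GTAAACA), for the E-box (CACGTG) and for a paired E-box-like repeat of the kind bound by MondoA and MLX (CACGNG, any 5 bases, CACGNG, which can contain an E-box). The forkhead motif occurred in 3.42% of 35116 windows of the same length, the E-box in 7.26% and the paired repeat in 0.057%, which is 20 windows. The upstream stretches of 4 genes are shown because DDIT4 and DEPP1 had the largest differences and because DEPP1, TXNIP and ARRDC4 between them hold all 3 motifs. Capitals mark the motif matches, and each stretch stops where the first GENCODE 29 exon begins. DDIT4 is chr10:72273674-72273919 on the plus strand, DEPP1 chr10:44978811-44979059 on the minus strand, TXNIP chr1:145996601-145996829 on the minus strand and ARRDC4 chr15:97960453-97960697 on the plus strand.
DDIT4: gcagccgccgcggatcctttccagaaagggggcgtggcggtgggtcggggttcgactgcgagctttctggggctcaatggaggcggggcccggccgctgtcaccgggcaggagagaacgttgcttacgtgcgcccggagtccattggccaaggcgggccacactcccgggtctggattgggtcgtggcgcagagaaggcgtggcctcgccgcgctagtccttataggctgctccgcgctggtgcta
DEPP1: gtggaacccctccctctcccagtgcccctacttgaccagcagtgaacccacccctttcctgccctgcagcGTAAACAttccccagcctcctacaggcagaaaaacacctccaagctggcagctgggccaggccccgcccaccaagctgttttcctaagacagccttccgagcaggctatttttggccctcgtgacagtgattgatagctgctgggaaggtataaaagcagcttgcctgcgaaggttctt
TXNIP: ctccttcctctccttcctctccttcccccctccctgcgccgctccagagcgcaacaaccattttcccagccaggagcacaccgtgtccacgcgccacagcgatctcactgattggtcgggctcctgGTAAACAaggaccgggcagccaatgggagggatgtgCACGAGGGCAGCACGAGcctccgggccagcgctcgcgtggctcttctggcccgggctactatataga
ARRDC4: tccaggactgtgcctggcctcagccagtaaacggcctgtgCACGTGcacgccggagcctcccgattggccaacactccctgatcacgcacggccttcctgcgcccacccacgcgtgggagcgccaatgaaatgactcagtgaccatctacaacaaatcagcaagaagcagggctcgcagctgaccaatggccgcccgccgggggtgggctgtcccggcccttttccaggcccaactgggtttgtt

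The DEPP1 stretch held the forkhead motif 180 bases before the start. TXNIP held it 124 bases before its first start and the paired repeat, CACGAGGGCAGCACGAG, 88 bases before it. ARRDC4 held an E-box 210 bases before its start. The forkhead motif also lay, on the reverse strand as TGTTTAC, 29 bases before the second start of ARRDC3 and 17 bases after the second start of PIK3IP1. None of the 3 motifs was found in the windows of DDIT4, IRS2 or SESN3, which says only that these letters are not in these windows. In all, 4 of the 8 genes had a forkhead match and 5 had any match, but the genes were picked as reported targets and a match is not a binding site. DDIT4 and DEPP1, the pair with the largest differences, thus did not share any of these motifs.

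**Figure D1:**
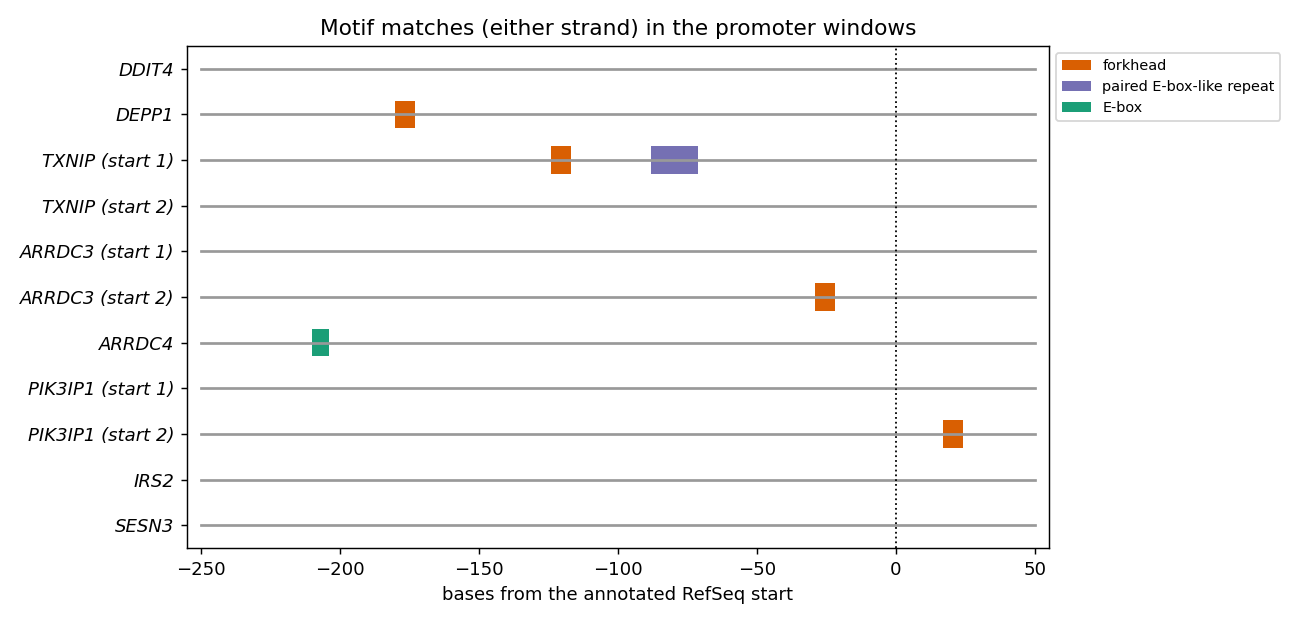
Motif matches in the promoter windows of the 8 genes; the x axis is the distance in bases from the annotated RefSeq start (dotted line), each grey line is 1 window of 300 bases and coloured blocks are matches on either strand. DEPP1 and TXNIP have a forkhead match upstream of the start, TXNIP also has the paired repeat, ARRDC4 has an E-box, and the DDIT4, IRS2 and SESN3 windows have none.

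Levels are in TPM, a transcript abundance scaled for transcript length and to a total of 1000000 in every library, so sequencing depth is unknown. HUWE1 itself checked the labels. It was 157.34, 162.26, 154.52 and 154.84 TPM in the set 1 controls and between 83.5 and 86.9 TPM in the HUWE1 siRNA libraries of set 1. In the controls of sets 2 and 3 it lay between 159 and 167 TPM, against 91.6 to 96.8 TPM in set 2 and 79.9 to 89.7 TPM in set 3. No HUWE1 siRNA library overlapped its controls (two-sided exact permutation test, p = 0.0286 in each set, the smallest that 4 against 4 libraries can give). The 10 HEK293-associated markers were uneven. As group means VIM lay between 485 and 863 TPM, NEFM between 98.8 and 158, CDH2 between 107 and 121, KRT18 between 64.5 and 71.5 and KRT8 between 39.4 and 46.7 TPM. The renal factors PAX2 (1.82 to 4.27 TPM) and LHX1 (2.91 to 3.47 TPM) and the neurofilament NEFH (0.238 to 2.30 TPM) were low, and PAX8 stayed at or under 0.332 TPM in every library. The summed TPM of these markers, to which VIM gave the largest part, was 930 to 976 in the set 1 controls and 836 to 869 in HUWE1 siRNA set 1, and 1052 to 1248, 1075 to 1291 and 1210 to 1299 in the controls of sets 2 and 3, set 2 and set 3. Over all libraries, 5 blood cell markers summed to 2.42 to 4.29 TPM (PTPRC at 0 in 7 libraries), 3 hepatocyte markers to 0.776 to 2.95 TPM and 4 epithelial and keratinocyte markers to 9.72 to 16.98 TPM (KRT5 at 0 in 14 libraries). The summed TPM of 5 fibroblast markers was 15.5 to 17.1 in the set 1 controls and 17.8 to 18.9 in HUWE1 siRNA set 1, and 7.85 to 11.4 in sets 2 and 3, with COL1A2 at 0 in 10 of the 20 libraries. Mitochondrially encoded transcripts took 24.3% to 26.2% of TPM in set 1, 16.6% to 18.3% in the controls of sets 2 and 3, 16.3% to 17.5% in set 2 and 15.5% to 16.4% in set 3. The HEK293-associated and fibroblast sums of set 1 and the mitochondrial share of set 3 thus did not overlap their controls, and their part in the results was not tested.

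The controls of sets 2 and 3 stood apart from the other groups in their spread. Their replicates 1 and 4 lay at opposite ends of the first component of within-group variation (scores 24.7 and -25.0, with all other libraries of sets 2 and 3 between -10.9 and 11.5), which held 39.6% of the within-group variance, against 21.0% in set 1. This matters for the 8 genes because DDIT4, DEPP1 and ARRDC3 followed that component closely. The log2 fold changes of the 8 genes in sets 2 and 3, and the counts called in set 3, are therefore given with and without these 2 libraries, a choice made after seeing the data. Values of single genes outside the 8 are given with all 4 controls.

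In the controls the 8 genes spanned more than 2 orders of magnitude. DDIT4 was the most abundant, with 1196 ± 43.3 TPM in the set 1 controls (SD, n = 4), rank 61 of 16057 genes tested, and 1475 ± 378 TPM (SD, n = 4) in those of sets 2 and 3, rank 66 of 15860. DEPP1 followed at 103 ± 4.38 TPM and 100.2 ± 29.6 TPM (SD, n = 4 each), then ARRDC3 at 40.8 ± 3.32 TPM and 51.8 ± 9.20 TPM, and SESN3 at 15.4 ± 1.03 TPM and 21.7 ± 0.760 TPM. ARRDC4 (13.54 TPM in the set 1 controls), TXNIP (10.2 TPM) and IRS2 (9.89 TPM) came next, and PIK3IP1 was the lowest at 6.04 TPM. Neighbours in this order whose libraries overlapped were SESN3 with ARRDC4 and TXNIP with IRS2 in the set 1 controls, and ARRDC4 with IRS2 and IRS2 with TXNIP in the controls of sets 2 and 3; all other neighbours were apart in every library. HUWE1 siRNA left the order of the top 4 as it was in every set, but in set 3 DEPP1 (49.9 TPM) came down into the range of ARRDC3 (39.8 TPM). The 2 tables were taken as normalized separately, since the sources used here do not say, so levels are not compared between set 1 and sets 2 and 3.

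DDIT4 (chr10:72273920-72276036, plus strand, GENCODE 29 on GRCh38) was lower than every control in all libraries of sets 1 and 3, while set 2 overlapped its controls. In set 1 the controls held 1244, 1142, 1184 and 1213 TPM, and the HUWE1 siRNA libraries 790, 782, 683 and 639 TPM. Every HUWE1 siRNA library lay under every control, at 60.5% of the control mean, with a log2 fold change of -0.73 ± 0.064 (SE). In the controls of sets 2 and 3 DDIT4 was 1925, 1394, 1565 and 1015 TPM, a 1.90-fold range among replicates. The set 2 libraries, at 1003, 1248, 1285 and 1432 TPM, lay mostly within that range and gave a log2 fold change of -0.22 ± 0.165, which was -0.08 without control replicate 1 and -0.39 without control replicate 4. The set 3 libraries, at 852, 943, 746 and 774 TPM, lay under all controls and under all set 2 libraries, at 56.2% of the control mean, with a log2 fold change of -0.80 ± 0.165. Set 3 minus set 2, a difference of means without the controls, was -0.58 ± 0.165. Its SE does use the spread of the controls, which were part of the same fit. Without control replicates 1 and 4 the set 2 and set 3 log2 fold changes of DDIT4 were -0.26 ± 0.126 and -0.84 ± 0.126. An antisense gene, DDIT4-AS1 (chr10:72274915-72275980, minus strand), lies within DDIT4; it averaged 0.204 to 0.459 TPM per group, and the sources used here do not say whether the authors' counting used strand.

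DEPP1 (chr10:44970981-44978810, minus strand), a FOXO-induced gene named for its induction by progesterone in decidual cells, followed DDIT4. In set 1 the controls held 107, 101, 107 and 98.2 TPM and the HUWE1 siRNA libraries 67.4, 61.8, 68.3 and 58.3 TPM. The groups did not overlap, and the log2 fold change was -0.68 ± 0.051 (SE). In the controls of sets 2 and 3 DEPP1 was 138, 92.1, 105 and 66.4 TPM, a 2.07-fold range. The set 2 libraries held 59.6, 74.6, 77.6 and 91.9 TPM (log2 fold change -0.36 ± 0.197) and overlapped the controls, while the set 3 libraries held 53.2, 61.0, 43.5 and 42.1 TPM (-0.96 ± 0.197) and did not. The set 2 value was -0.20 without control replicate 1 and -0.54 without control replicate 4. Set 3 was at 49.8% of its control mean. Set 3 minus set 2 was -0.59 ± 0.197, with 3 of 4 set 3 libraries under all of set 2. Without control replicates 1 and 4, DEPP1 gave -0.38 ± 0.166 in set 2 and -0.98 ± 0.166 in set 3.

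**Figure D2:**
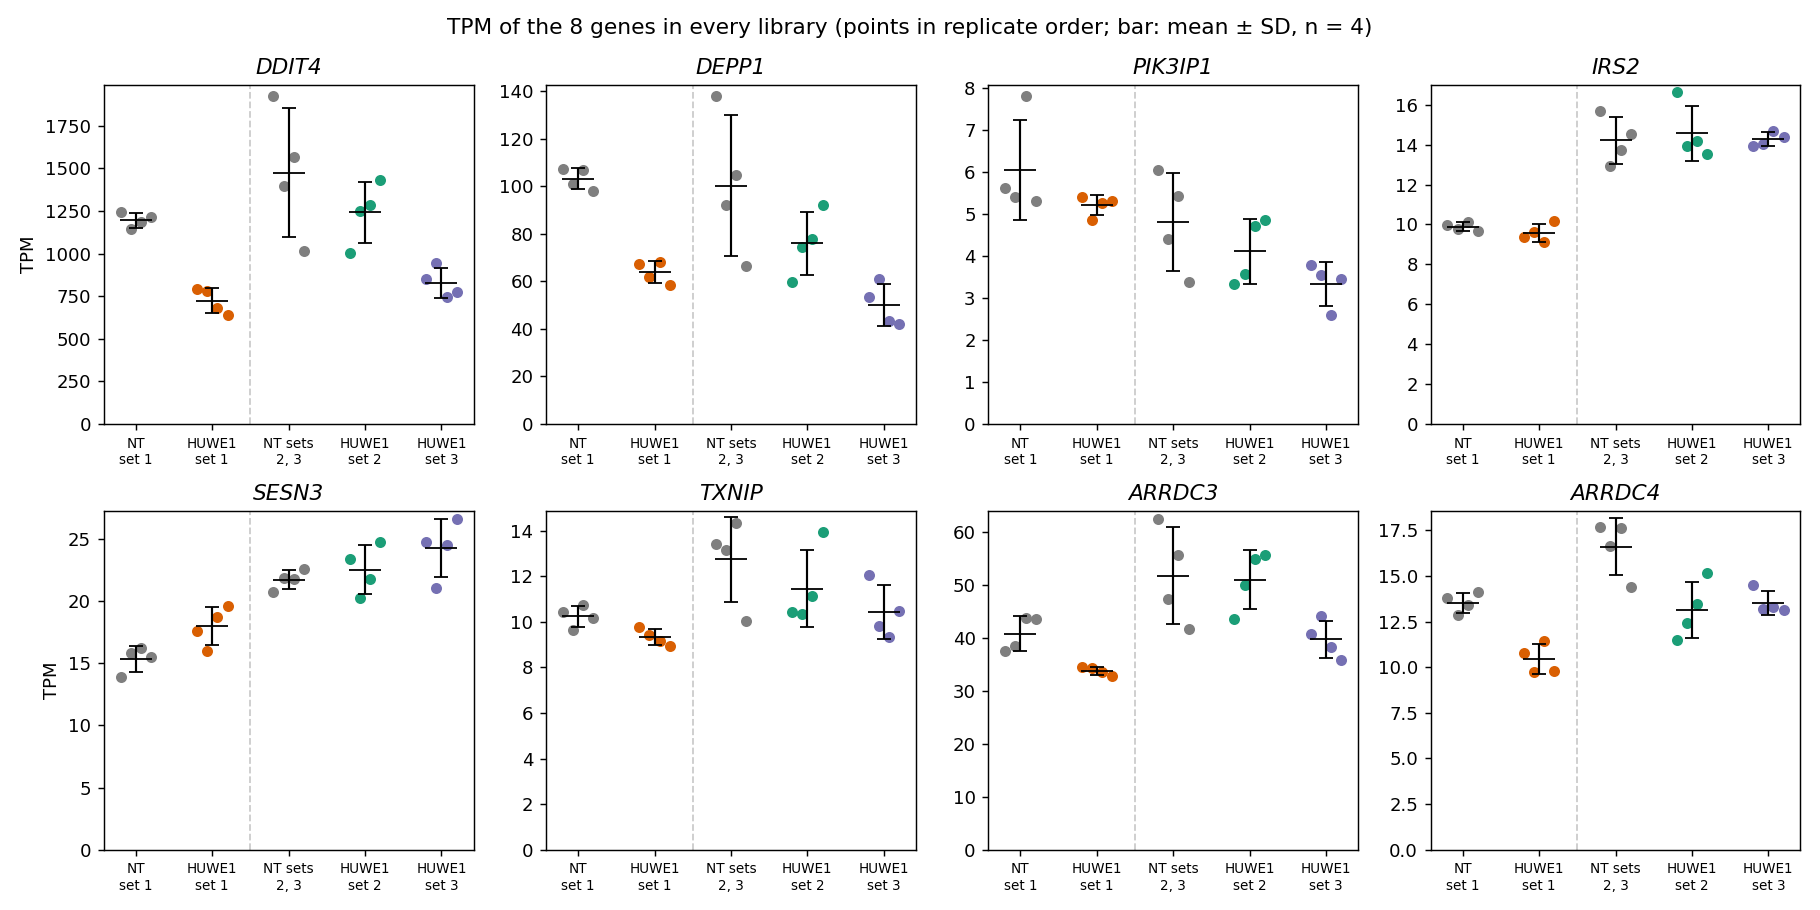
TPM of the 8 genes in each library, 1 panel per gene with a linear y axis from 0; points are libraries in replicate order, horizontal bars the group mean and error bars the SD (n = 4), and the dashed line separates the 2 tables. DDIT4 and DEPP1 are under all controls in sets 1 and 3, while their controls in sets 2 and 3 spread about 1.90-fold and 2.07-fold.

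In sets 2 and 3 the ratio of DEPP1 to DDIT4 varied less among replicates than either gene: its coefficient of variation was 4.12%, 3.61% and 7.65% in the controls, set 2 and set 3, beside 25.6%, 14.3% and 10.7% for DDIT4. In set 1 it did not, with 4.57% and 10.05% in controls and HUWE1 siRNA libraries beside 3.62% and 10.3% for DDIT4 and 4.24% and 7.38% for DEPP1. Among the controls of sets 2 and 3, DEPP1 stood at 6.75% ± 0.278 of the DDIT4 TPM (SD, n = 4), between 6.54% and 7.16% in single libraries, although each gene ranged about 2-fold there. It stood at 6.09% ± 0.220 in set 2 and 5.99% ± 0.458 in set 3 (SD, n = 4 each). In set 1 it was 8.64% ± 0.395 in controls and 8.89% ± 0.893 with HUWE1 siRNA (SD, n = 4 each), so the 2 genes were lower there by nearly the same factor. Within groups, the deviations of DDIT4 and DEPP1 from their group means on the log2(TPM + 1) scale correlated at r = 0.984 over the 12 libraries of sets 2 and 3, at 0.972 over the 10 left without control replicates 1 and 4, and at 0.389 over the 8 libraries of set 1, where the spread was small. Libraries share their total and preparation, so these values describe the libraries and carry no test.

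**Figure D3:**
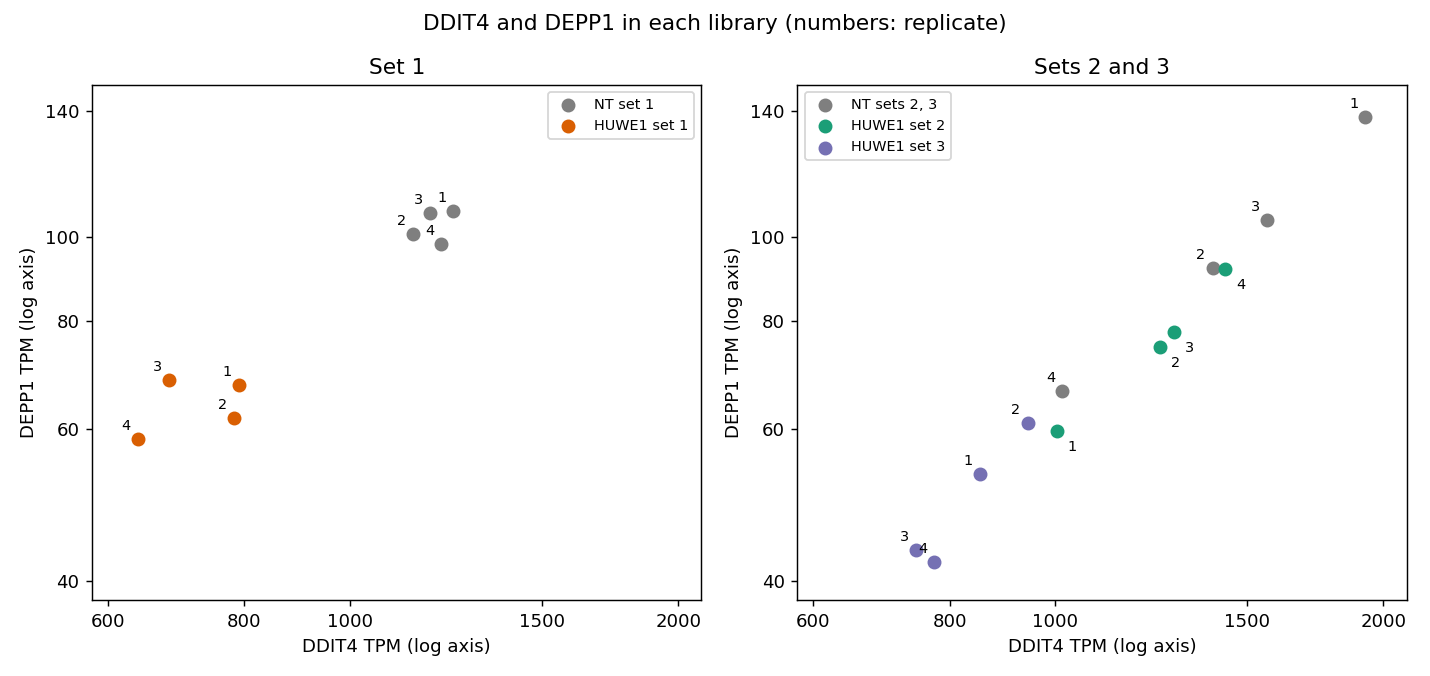
DEPP1 TPM (y, log axis) against DDIT4 TPM (x, log axis) in each library, set 1 at left and sets 2 and 3 at right; colours are groups and numbers are replicates. In sets 2 and 3 the 12 libraries lie near 1 line from control replicate 1 (1925 and 138 TPM) down to set 3, and control replicate 4 lies among set 2 and set 3 libraries; in set 1 the 2 groups form separate clusters.

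The other genes that restrain insulin or mTORC1 signalling moved less. PIK3IP1 (chr22:31281593-31292534, minus strand), a membrane protein that inhibits PI3-kinase, was 5.63, 5.41, 7.81 and 5.32 TPM in the set 1 controls and 5.41, 4.86, 5.27 and 5.31 TPM with HUWE1 siRNA. Its log2 fold change of -0.17 in set 1 came largely from 1 control: without control replicate 3 it was -0.05. In sets 2 and 3 the controls held 6.04, 4.41, 5.42 and 3.38 TPM, set 2 3.32, 3.57, 4.70 and 4.86 TPM and set 3 3.79, 3.54, 2.59 and 3.46 TPM. The groups overlapped, with log2 fold changes of -0.18 ± 0.153 and -0.41 ± 0.153, and of -0.22 ± 0.150 and -0.45 ± 0.150 without control replicates 1 and 4.

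IRS2 (chr13:109752698-109786568, minus strand), the adaptor that couples the insulin receptor to PI3-kinase and a classic FOXO target in liver, barely differed between groups. It ranged from 9.68 to 10.1 TPM in the set 1 controls and from 9.11 to 10.2 TPM with HUWE1 siRNA, and from 12.9 to 16.6 TPM over the 12 libraries of sets 2 and 3. Its log2 fold changes were -0.04 ± 0.043, 0.03 ± 0.068 and 0.01 ± 0.068 in sets 1, 2 and 3, and 0.12 ± 0.073 and 0.09 ± 0.073 in sets 2 and 3 without control replicates 1 and 4.

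SESN3 (chr11:95165513-95232541, minus strand), a sestrin that restrains mTORC1, lay on the other side of its controls. In set 1 the controls held 13.9, 15.8, 16.2 and 15.5 TPM and the HUWE1 siRNA libraries 17.6, 16.0, 18.7 and 19.6 TPM. Among the HUWE1 siRNA libraries 3 of 4 were above every control, with a log2 fold change of 0.21 ± 0.065 (SE). In set 3, 3 of 4 libraries were above all controls (24.7, 21.0, 24.5 and 26.6 TPM against 20.7 to 22.5 TPM; 0.15 ± 0.073), and in set 2 the difference was 0.05 ± 0.073. Without control replicates 1 and 4 the log2 fold changes of SESN3 were 0.04 ± 0.090 in set 2 and 0.14 ± 0.090 in set 3. SESN3 was thus the single gene of the 8 with a positive log2 fold change in all 3 sets.

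Among the alpha-arrestins, TXNIP (chr1:145992435-145996600, minus strand), which binds thioredoxin and lowers glucose uptake, was 10.4, 9.62, 10.7 and 10.2 TPM in the set 1 controls and 9.76, 9.43, 9.17 and 8.92 TPM with HUWE1 siRNA. The log2 fold change was -0.12 ± 0.046, and 3 of 4 libraries were under all controls. In the controls of sets 2 and 3 it was 13.4, 13.2, 14.3 and 10.1 TPM, in set 2 10.4, 10.4, 11.1 and 13.9 TPM and in set 3 12.04, 9.82, 9.32 and 10.5 TPM. The groups overlapped, with log2 fold changes of -0.14 ± 0.115 and -0.26 ± 0.115, and of -0.25 ± 0.117 and -0.37 ± 0.117 without control replicates 1 and 4.

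ARRDC3 (chr5:91368724-91383359, minus strand), an adaptor that brings NEDD4-family ubiquitin ligases to membrane receptors, was 37.6, 38.4, 43.8 and 43.6 TPM in the set 1 controls and 34.4, 34.3, 33.7 and 32.8 TPM with HUWE1 siRNA. The groups did not overlap (-0.26 ± 0.052). In sets 2 and 3 the controls held 62.5, 47.3, 55.6 and 41.6 TPM. Set 2, at 43.6, 49.96, 54.9 and 55.7 TPM, lay within that range (-0.01 ± 0.117), and 3 of the 4 set 3 libraries, at 40.8, 44.1, 38.3 and 35.9 TPM, were under all controls (-0.36 ± 0.117). Without control replicates 1 and 4 the values were -0.01 ± 0.106 and -0.36 ± 0.106. Its antisense neighbour ARRDC3-AS1, which overlaps its 5' end, averaged 1.47 to 2.10 TPM per group.

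ARRDC4 (chr15:97960698-97973838, plus strand), a MondoA-driven relative of TXNIP, was lower to a like degree in all 3 sets. The set 1 controls held 13.8, 12.9, 13.4 and 14.1 TPM and the HUWE1 siRNA libraries 10.8, 9.72, 11.43 and 9.81 TPM, with no overlap (-0.35 ± 0.055). The controls of sets 2 and 3 held 17.7, 16.7, 17.6 and 14.4 TPM, set 2 11.5, 12.4, 13.47 and 15.1 TPM and set 3 14.5, 13.2, 13.3 and 13.1 TPM. In each of sets 2 and 3, 3 of 4 libraries were under all controls, with log2 fold changes of -0.32 ± 0.082 and -0.27 ± 0.082, and of -0.37 ± 0.088 and -0.32 ± 0.088 without control replicates 1 and 4. ARRDC4 was the only 1 of the 6 genes with negative values in all 3 sets whose set 3 minus set 2 difference was positive (0.04 ± 0.082).

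Calls come from limma, a linear model with a moderated variance, at 0.05 after Benjamini-Hochberg adjustment over all genes. In set 1, 4 of the 8 genes were called lower (DDIT4, DEPP1, ARRDC3 and ARRDC4; 17.9% of all genes tested were called lower) and SESN3 was called higher (12.3% called higher; 30.3% in either direction). In set 2 none of the 8 was called by limma (0.0126% of all genes, which is 2 genes, HUWE1 among them), and 1 of the 8, ARRDC4, had an unadjusted p under 0.05, as did 1401 of 15860 genes tested; no other tool was run. In set 3, DDIT4, DEPP1 and ARRDC4 were called lower (4.15% of all genes called lower, 7.45% called higher, 11.6% in all). Between set 3 and set 2 none of the 8 was called by limma (0.517% of all genes called), in a fit whose spread included the controls. An unadjusted p under 0.05 was found for 3 of the 8 and for 2507 genes in all. Groups of 4 did not overlap, with HUWE1 siRNA lower, for 4 of the 8 genes in set 1 (18.4% of all genes), 0 in set 2 (1.71%), 2 in set 3 (6.03%) and, between set 3 and set 2, for DDIT4 (5.05%). None of the 8 lay above without overlap in set 1 (13.3% of all genes), set 2 (1.99%), set 3 (11.2%) or set 3 against set 2 (8.13%). Because the members were chosen with these contrasts known, nothing is read from those counts and shares, adjusted or unadjusted. The median log2 fold change of the 8 genes was -0.22, -0.16 and -0.32 in sets 1, 2 and 3, beside -0.01, -0.00 and 0.01 over all genes tested.

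The set 3 count turned on single libraries. It was 6 without control replicate 4, 5 without control replicates 1 and 4 together, and 0 without control replicate 3, HUWE1 siRNA set 3 replicate 3 or HUWE1 siRNA set 3 replicate 4, while the number of genes called in all went from 163 to 5878. DDIT4 and DEPP1 kept a negative sign in all 18 alternatives for set 3 and were called in 15 of them, and ARRDC4 kept its sign in 18 and was called in 6. In set 1 the 4 genes called lower were called in all 16 alternatives, and SESN3 in 10 of 16.

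**Figure D4:**
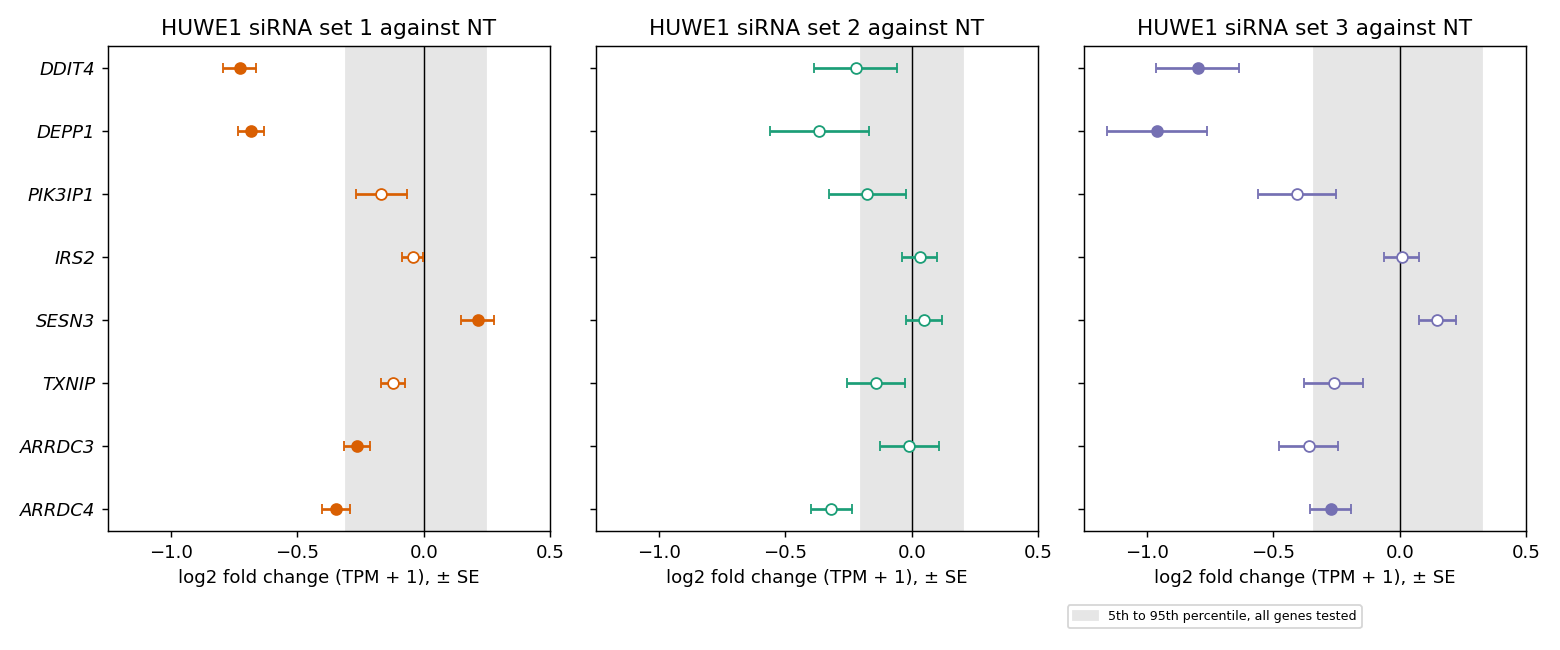
Log2 fold change of TPM + 1 (x axis, error bars SE) of the 8 genes in HUWE1 siRNA sets 1, 2 and 3 against their controls; filled points were called by limma over all genes, and grey bands span the 5th to 95th percentile of all genes tested. DDIT4 and DEPP1 lie far left of the band in sets 1 and 3 (-0.73 and -0.68, -0.80 and -0.96), IRS2 lies near 0 and SESN3 right of 0 in all sets.

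The spread among replicates followed a like order in 5 of the 8 genes in the controls of sets 2 and 3 and in set 2, but not in set 3. DDIT4, DEPP1, ARRDC3, ARRDC4 and PIK3IP1 ranked the 4 controls in the same order (replicates 1, 3, 2, 4 from high to low) and the 4 set 2 libraries in the same order (4, 3, 2, 1). These 5 genes did not all rank the set 3 libraries alike: DDIT4 was highest in replicate 2 and ARRDC4 in replicate 1. How many of all genes shared these orders was not counted. Over the 12 libraries, deviations from the group means correlated with the first within-group component at r = 0.975 for DDIT4, 0.975 for DEPP1, 0.955 for ARRDC3, 0.876 for PIK3IP1, 0.811 for ARRDC4 and 0.707 for TXNIP, beside a median absolute r of 0.643 over all genes tested. IRS2 (-0.058) and SESN3 (-0.299) did not follow it over these 12 libraries. For IRS2 this depended on control replicates 1 and 4. Its deviations correlated with those of DDIT4 at r = -0.212 over the 12 libraries and at -0.764 over the 10 left without them. Of all genes tested, 1.34% had an r as high as DDIT4, 1.40% as DEPP1, 3.85% as ARRDC3, 13.5% as PIK3IP1, 19.3% as ARRDC4 and 26.5% as TXNIP. The SD of DDIT4 and DEPP1 among the controls of sets 2 and 3 was at the 95.1 and 96.8 percentile of all genes tested, and at the 38.01 and 45.9 percentile among the set 1 controls. What set these libraries apart was not tested.

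Over all libraries, the genes most like DDIT4 and DEPP1 were not among the other 6. Likeness was the mean of 2 Pearson correlations of log2(TPM + 1), over the 8 libraries of set 1 and the 12 of sets 2 and 3, for 11467 genes; it is a description, since libraries share their groups and totals. DEPP1 ranked 4 for DDIT4 (mean r 0.978) and DDIT4 ranked 6 for DEPP1. The 5 other genes most like DDIT4 were NBPF9 (mean r 0.982), NUDT16, PPRC1, DCAF4 and RSAD1, and those most like DEPP1 were POLR3D (0.988), TMEM206, POLR1B, PPRC1 and MAP4K1. PPRC1 was 161 TPM in the set 1 controls and 134 TPM with HUWE1 siRNA, and 98.0, 86.3 and 70.6 TPM in the controls of sets 2 and 3, set 2 and set 3. NBPF9 belongs to a multigene family of near-identical copies, and its TPM is uncertain for that reason. Of the other 6 genes, PIK3IP1 was left out, since its mean in sets 2 and 3 was under the 5 TPM required in each table. ARRDC3 came closest to DDIT4 (rank 365, mean r 0.913), followed by TXNIP (rank 1101) and ARRDC4 (rank 1316). SESN3 ran opposite to DDIT4, with a mean r of -0.75.

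The transcription factors behind these targets were measured in all libraries, and their limma values come from the fit over all genes. These factors and the gene lists below were chosen with earlier results of these data known. Their p-values and counts therefore describe these libraries and are no independent test of a list. From the lists other than factors, alpha-arrestins and sestrins, the called genes with the smallest p were named. FOXO3 was the most abundant FOXO factor (91.3 ± 1.25 TPM in the set 1 controls, SD, n = 4), followed by FOXO4 (41.8 ± 0.922 TPM), FOXO1 (12.5 ± 0.518 TPM) and FOXO6 (8.45 ± 0.948 TPM). In set 1, 2 of the 7 factors rose and 1 fell, beside 12.3% of all genes called higher and 17.9% called lower. MLXIPL, which encodes the glucose-sensing factor ChREBP, rose from 7.68 ± 0.354 to 10.4 ± 0.639 TPM (SD, n = 4 each; log2 fold change 0.40, limma adjusted p = 0.00061, 4 of 4 libraries above all controls). MLXIP, the MondoA gene, fell from 38.7 ± 0.334 to 33.8 ± 1.23 TPM (log2 fold change -0.19, limma adjusted p = 0.0018, 4 of 4 libraries under all controls). FOXO4 rose from 41.8 ± 0.922 to 46.8 ± 1.44 TPM (log2 fold change 0.16, limma adjusted p = 0.0034, 4 of 4 libraries above all controls). These 3 calls held in all 16 alternatives. FOXO1 (-0.01 ± 0.044), FOXO3 (-0.02 ± 0.029), FOXO6 (-0.20 ± 0.070) and MLX (-0.09 ± 0.030; log2 fold changes ± SE) were not called.

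In set 3 none of the 7 factors was called by limma. MLXIPL (0.32 ± 0.108, limma adjusted p = 0.066), MLXIP (-0.19 ± 0.086, adjusted p = 0.14), FOXO6 (-0.41 ± 0.141, adjusted p = 0.070) and FOXO3 (-0.20 ± 0.088, adjusted p = 0.13) had the largest log2 fold changes. In set 2 none was called either, and FOXO4 had the largest value (-0.23 ± 0.057, limma adjusted p = 0.42), with all 4 libraries under all controls. The median over the 7 factors was -0.02, -0.14 and -0.15 in sets 1, 2 and 3. The controls of sets 2 and 3 were wide here too: MLXIP was 30.8, 23.9, 25.3 and 21.3 TPM and FOXO3 116, 97.3, 102 and 82.7 TPM, highest in replicate 1 and lowest in replicate 4, as for DDIT4.

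Close relatives of the 8 genes did not share 1 direction. SESN1, a p53- and FOXO-induced sestrin, rose from 16.3 ± 0.715 to 18.4 ± 0.414 TPM in set 1 (SD, n = 4 each; log2 fold change 0.17, limma adjusted p = 0.0087) and from 18.4 ± 0.595 to 21.5 ± 1.24 TPM in set 3 (0.22, adjusted p = 0.027), with 4 of 4 libraries above all controls in both. SESN2, the stress-induced sestrin and an ATF4 target, fell in set 1 from 145 ± 6.06 to 119 ± 7.03 TPM (log2 fold change -0.29, limma adjusted p = 0.0013, 4 of 4 libraries under all controls). In set 3 SESN2 was not called (-0.24 ± 0.131), with controls of 147, 100.1, 116 and 83.8 TPM. DDIT4L, the paralog of DDIT4, was not called in set 1 (0.05 ± 0.060), set 2 (-0.17 ± 0.134) or set 3 (-0.44 ± 0.134, limma adjusted p = 0.051). In set 3, 4 of 4 DDIT4L libraries were under all controls (mean 2.88 against 4.32 TPM), as for 6.03% of all genes. Among the alpha-arrestins, ARRDC1 (0.09 ± 0.053 and 0.24 ± 0.091 in sets 1 and 3) and ARRDC2 (0.03 ± 0.064 and -0.07 ± 0.063) were not called, and ARRDC5 is listed at 0 in all libraries.

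Other FOXO and Mondo targets, from lists of genes that are not among the 8, went both ways. In set 1, 4 of 20 other FOXO targets rose and 3 fell, with a median log2 fold change of 0.04. Of all genes tested, 12.3% were called higher and 17.9% lower in set 1, and 7.45% and 4.15% in set 3. PCK1, the rate-limiting enzyme of gluconeogenesis, fell by 0.48 on the log2 scale to a mean of 2.82 TPM (limma adjusted p = 0.00061), the growth-arrest gene GADD45A fell by 0.39 (adjusted p = 0.00071), the pseudokinase gene TRIB1 fell by 0.17 (adjusted p = 0.0025), and catalase (CAT) rose by 0.21 (adjusted p = 0.0025). In set 3, the transcription factor KLF6 rose by 0.28 (limma adjusted p = 0.015), SESN1 rose as given above, and CITED2, a transcriptional co-regulator, fell by 0.49 (adjusted p = 0.037); the other 17 of 20 were not called. Of the other MondoA and ChREBP targets, 3 of 14 rose and 6 fell in set 1, with a median of -0.11. The signalling regulator RGS16 fell by 0.46 (limma adjusted p = 0.00018), KLF10 by 0.38 (adjusted p = 0.00029) and lactate dehydrogenase A (LDHA) by 0.19 (adjusted p = 0.00057), while fatty acid synthase (FASN) rose by 0.21 (adjusted p = 0.0023). In set 3, 2 of 13 fell, RGS16 by 0.39 (limma adjusted p = 0.025) and acetyl-CoA carboxylase (ACACA) by 0.17 (adjusted p = 0.024), and none rose.

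Of the insulin-to-AKT genes, 6 of 24 rose and 1 fell in set 1, a share close to the 30.3% called over all genes. The adaptor IRS1 fell by 0.48 (limma adjusted p = 0.00014), while the adaptor IRS4 rose by 0.40 (adjusted p = 0.0074), the kinase SGK3 by 0.29 (adjusted p = 0.0055) and the PI3-kinase subunit PIK3CD by 0.19 (adjusted p = 0.011). IRS4 was by far the most abundant of the 3 adaptors named, at 417 TPM in the set 1 controls against 9.69 TPM for IRS1 and 9.89 TPM for IRS2. In set 3, PIK3CD rose by 0.23 (limma adjusted p = 0.021), SGK3 rose by 0.21 (adjusted p = 0.029) and the PI3-kinase regulatory subunit PIK3R3 fell by 0.60 (adjusted p = 0.0499). In the mTORC1 and TSC complex list, 5 of 19 fell and 2 rose in set 1, beside 17.9% and 12.3% of all genes. The translation repressor EIF4EBP1 fell by 0.38 (limma adjusted p = 0.00015), the mTORC1 subunit MLST8 by 0.18 (adjusted p = 0.0034), and the Rag GTPases RRAGC and RRAGA by 0.18 and 0.16 (adjusted p = 0.0037 and 0.0038). In set 3, RRAGB rose by 0.22 (limma adjusted p = 0.015), the mTOR inhibitor DEPTOR fell by 0.31 (adjusted p = 0.018) and MLST8 fell by 0.28 (adjusted p = 0.021).

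Genes induced by the other known inducers of DDIT4 were set beside it. The ATF4 list held 15 genes, ATF4 itself among them. In set 1, 11 of the 15 fell and none rose by limma, beside 17.9% of all genes called lower. Their median was -0.27, beside -0.01 over all genes tested. ATF4 was 1 of the 11, and its call held in 6 of 16 alternatives. TRIB3 fell by 0.72, STC2 by 0.36, CHAC1 by 0.35 and ATF3 by 0.59 on the log2 scale (limma adjusted p = 7.7e-05, 0.00018, 0.00026 and 0.00056). In set 3 none of the 15 was called by limma, and the median was -0.08. TRIB3 was at 0.07 ± 0.111 there, and CHAC1 at -0.51 ± 0.185. Of 9 glucocorticoid-induced genes, 5 fell and 1 rose in set 1, and 3 fell and 1 rose in set 3. The shares of all genes called lower and higher were 17.9% and 12.3% in set 1 and 4.15% and 7.45% in set 3. TSC22D3 (GILZ) fell by 0.19 and 0.33 in sets 1 and 3 (limma adjusted p = 0.00052 and 0.0060) and KLF9 by 0.22 and 0.28 (adjusted p = 0.0011 and 0.036). DUSP1 and ERRFI1 fell in set 1, by 0.47 and 0.24 (limma adjusted p = 0.00033 and 0.0012). GLUL was called lower in both sets, at 167 against 184 TPM in set 1 and by 0.36 in set 3 (limma adjusted p = 0.039 in set 3). FKBP5, also a glucocorticoid-induced gene, rose in set 3 by 0.16 (limma adjusted p = 0.040). Of 17 targets of the hypoxia factor HIF, 3 fell in set 1, the growth factor VEGFA by 0.27, ANKRD37 by 0.22 and PFKFB4 by 0.17 (limma adjusted p = 0.0011, 0.021 and 0.028), and HILPDA fell in set 3 by 0.21 (adjusted p = 0.034); none rose. The medians of the HIF list were -0.03 and -0.02.

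Partners of TXNIP were split. Of all genes tested, 17.9% were called lower and 12.3% higher in set 1, and 4.15% and 7.45% in set 3. Of 10 thioredoxin and glucose uptake genes, 4 fell and 2 rose in set 1: TXN by 0.25, TXNRD1 by 0.19 and HK2 by 0.13 fell (limma adjusted p = 0.0042, 0.0014 and 0.019), while the mitochondrial thioredoxin reductase TXNRD2 rose by 0.27 (adjusted p = 0.0016). In set 3, TXNRD2 rose by 0.32 and TXNRD3 by 0.35, and the glucose transporter SLC2A3 fell by 0.26 (limma adjusted p = 0.037, 0.049 and 0.031). Over all these lists, 57 of 133 genes tested were called in set 1 (19 higher and 38 lower, 42.9%, beside 30.3% of all genes) and 19 of 132 in set 3 (8 higher and 11 lower, 14.4%, beside 11.6%). In set 2 none of the 132 was called by limma (0.0126% of all genes), and 15 had an unadjusted p under 0.05. All 39 named list genes called in set 1 and all 19 in set 3 were on the stated side of the control mean in 4 of 4 libraries. Since these genes were called in the same libraries, this describes them and adds no evidence for the calls.

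**Figure D5:**
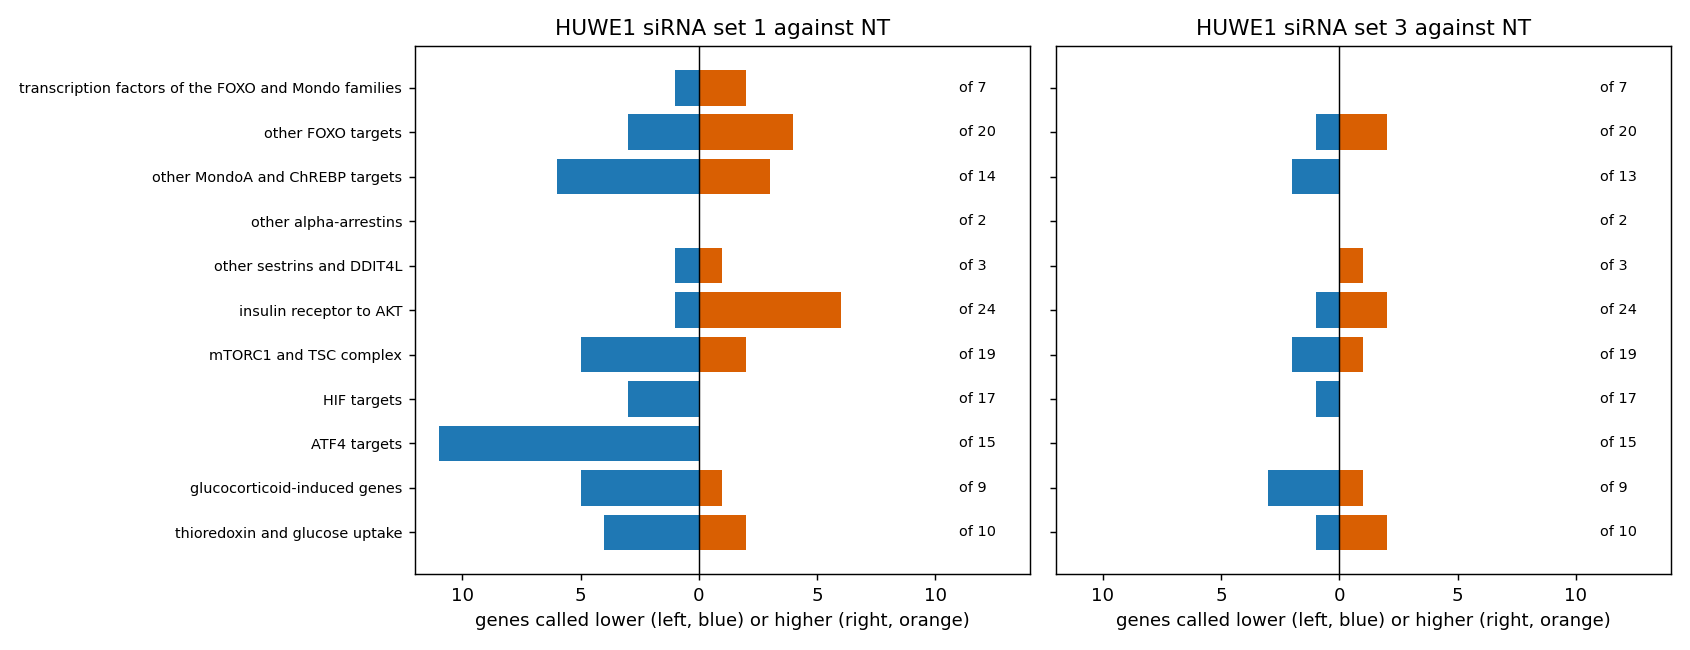
Number of genes called lower (blue, left) or higher (orange, right) by limma in each list of genes other than the 8, for HUWE1 siRNA set 1 and set 3 against their controls, with the number tested at the right of each panel. The list of ATF4 targets, which also holds ATF4 itself, has 11 of 15 called lower in set 1 and 0 of 15 called in set 3.

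The list counts of set 3 depended on single libraries. Of the 19 genes called, 2 remained without control replicate 3, 2 without HUWE1 siRNA set 3 replicate 3, 2 without HUWE1 siRNA set 3 replicate 4, 4 without control replicate 2, 5 without HUWE1 siRNA set 3 replicate 1, 9 without control replicate 1, and 11 without HUWE1 siRNA set 3 replicate 2. All 19 remained without control replicate 4, where 53 list genes were called in all, and without control replicates 1 and 4 together, where 31 were. TSC22D3 was called in 18 of 18 alternatives, RRAGB in 17 and KLF6 in 16, whereas TXNRD3 was called in 4 and PIK3R3 and FKBP5 in 6 each. All 19 kept their direction in all 18. In set 1 all 57 kept their direction where they were fitted, and 43 to 53 remained called when 1 library was left out.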

How the data were processed

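Per the labels' protocols, RNA from HEK293T cells was sequenced with a stranded mRNA library kit. The authors deposited TPM values in 2 tables of the same 45372 symbols, 1 for set 1 (8 libraries) and 1 for sets 2 and 3 (12 libraries), on genome build hg38 per the submitters' processing notes. The sources used here name no aligner, counter or annotation. Each library sums to 1000000 TPM, so no counting error could be computed.

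A gene entered the fit of a table if 4 of its libraries reached 1 TPM. Testing used limma 3.58.1 (R 4.3.3) on log2(TPM + 1), with a variance trend and Benjamini-Hochberg adjustment over all genes (called under 0.05). This scale understates changes of low genes. Set 1 was 1 fit and sets 2 and 3 another with shared controls, so sets 2 and 3 are not independent of each other, and the tables were not tested together. The procedure was tested on simulated data for sets 1 and 3, with errors drawn independently for each gene. Variation shared by many genes of a library, as in sets 2 and 3, was not simulated. HUWE1 had an exact permutation test. Scaling choice moved the share of called genes that were higher, from 40.8% to 50.6% in set 1 and from 64.2% to 48.9% in set 3 with median-of-ratios scaling, and to 44.4% in set 3 without mitochondrially encoded genes.

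The 8 genes and the gene lists were chosen with earlier results of these data known. Named genes are the 8, HUWE1, all measured FOXO and Mondo factors, alpha-arrestins and sestrins, up to 4 called genes per other list and set with the smallest p, and the 5 genes most like DDIT4 and DEPP1. Positions are GENCODE 29 and sequences RefSeq. The level of 1 marker gene is not reported here. The alternatives tried were median-of-ratios scaling, quantile normalization, dropping mitochondrially encoded genes, adding 0.1 in place of 1, testing all genes, requiring a mean of 5 TPM, fitting no variance trend, a replicate block, fitting just the groups compared, and leaving out each library. The fit without both control libraries farthest apart was added after seeing the data.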

Additional observations from a re-analysis of the deposited data

Results flagged for a closer look

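Among 105 groups of 4 libraries over 21 genes, 2 held a library far from the other 3, where chance flags about 1 in 20. ARRDC4 in HUWE1 siRNA set 3 had 1 high library, 14.5 TPM beside 13.1 to 13.3 TPM, with a gap of 0.881 of the group's range. PIK3IP1 in the set 1 controls had 1 high library, 7.81 TPM beside 5.32 to 5.63 TPM, with a gap of 0.877 of the range.

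PIK3CD, a PI3-kinase catalytic subunit, was higher in set 3 than in set 2 (8.79 against 7.22 TPM, log2 fold change 0.25 ± 0.049, limma adjusted p = 0.0458, 4 of 4 libraries above the set 2 mean). It kept its direction in 17 of 17 alternatives and its call in 5 of them. FOXO4 was above all controls in the 4 libraries of set 1 (log2 fold change 0.16) and under all controls in the 4 libraries of set 2 (-0.23, not called by limma). The difference between these sets, which lie in tables taken as normalized separately, was not tested.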

How the results depend on the processing

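All log2 fold changes of the 8 genes that were called kept their sign in all alternatives run, 16 for set 1 and 17 or 18 for sets 2 and 3. Signs turned only for values not called: ARRDC3 in set 2 in 4 alternatives, IRS2 in set 2 in 2 and in set 3 in 4. In set 1 the counts of genes, of the 8 members and of list genes called stayed within 1.5 times their values under all alternatives; with 1 library left out they were 3640 to 4675, 4 to 6 and 44 to 58. In set 2 the 2 genes called became 1 with median-of-ratios scaling, no variance trend, the replicate block or only the 2 groups compared, 6 without mitochondrially encoded genes, and 1 to 2 with 1 library left out; no member or list gene was called in any of them. In set 3 the 1839 genes and 19 list genes called became 698 and 8 with no filter, where more genes were tested, 360 and 4 with only the 2 groups compared, where fewer libraries set the spread, and 3245 and 31 without both control libraries farthest apart, where 5 in place of 3 members were called. With 1 library left out they were 163 to 5878 genes, 0 to 6 members and 2 to 53 list genes; the cause was not tested.

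The labels do not say whether libraries of the same number were handled together. Deviations of same-numbered libraries correlated at 0.000215 to 0.0521 in set 1, -0.481 to 0.0389 in set 2 and -0.0266 to 0.407 in set 3, and 1 of 4, 0 of 4 and 2 of 4 libraries correlated best with their own number. With the replicate block, 4597 genes, 5 members and 56 list genes were called in set 1, and 693 genes, 2 members and 11 list genes in set 3. HUWE1 gave the same exact permutation p on log2(TPM + 1), as it must where the groups do not overlap.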
